A study of Mus musculus with 3 samples.

Results

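The long last coding exons of mouse zinc-finger genes were examined for contacts with Tra2β in the adult testis. A member was an autosomal protein-coding gene with a symbol of Zfp and a number, whose canonical transcript holds at least 800 nt of coding sequence in its last coding exon. The region measured was that stretch of coding sequence, called the block from here on. Of 20621 last coding exon blocks of autosomal protein-coding genes, 313 met this rule. Blocks of at least 800 nt numbered 3803 in all, and 410 autosomal protein-coding genes carried a Zfp symbol.

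The study mapped RNA contacts of endogenous Tra2β by iCLIP in testes of adult wild type mice. The labels gave 1 group of 3 biological replicates, and every library carried the same genotype and no treatment. Per the methods, mincing the testes freed germ cells, which were irradiated with ultraviolet-C light, and Tra2β was recovered with an antibody to the endogenous protein. No sort by cell type was described, so the libraries mix all cells that were freed. In iCLIP the end of each cDNA marks the nucleotide where the protein was fixed to the RNA, and a crosslink here is 1 unique cDNA at 1 nucleotide. No library without Tra2β or without crosslinking was analysed here, so values were compared within genes and within libraries. iCLIP does not measure how much of each RNA is present, and fewer cells of a type and less RNA per cell cannot be told apart.

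Tra2β is a splicing regulator related to the SR proteins. It binds purine-rich RNA with AGAA or GAA at its core and is best known for promoting the use of exons that hold such sites. Zinc-finger proteins of the C2H2 class read DNA with arrays of fingers, each holding a zinc ion between a pair of cysteines and a pair of histidines. In many Zfp genes the whole array is encoded in the last exon, as tandem repeats joined by a short conserved linker. Members that also carry a KRAB domain, encoded in earlier exons, recruit the corepressor Trim28 and silence transposons and imprinted loci.

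The linkers bring an AGAA motif into the repeat, and sequences are shown for that reason. The lines below give the most common base at each nucleotide over 2972 repeat units of the members, first for nt 22 to 42 of the repeat, which held the most crosslinks in replicates 2 and 3, then for the linker, nt 64 to 84. The other lines are common 18-nt linker starts among the same units. Capitals mark AGAA, sequences read from 5′ to 3′, and T stands for U of the RNA.

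Repeat nt 22 to 42: tttactcataactcaaatctt
Repeat nt 64 to 84: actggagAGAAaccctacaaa
Linker start in 138 units: acaggagAGAAaccttac
Linker start in 98 units: actggagAGAAaccctat
Linker start in 48 units: actggagAGAAgccctat

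The commonest of these linker starts was present in 4.64% of units. All of them hold AGAA at the same place of the repeat.

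For comparison with the repeat, the lines below give the 30-nt window of the block with the most crosslinks over the 3 libraries, for the 11 members in which it held at least 4 and its sequence was read. They are shown because they are the densest contacts found, and capitals again mark AGAA. Coordinates are from GRCm39 (mm39), and every window lies in coding sequence. The windows were picked for their counts, so the counts are a description with no test.

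Zfp318, chr17:46721888-46721917, plus strand: cttttggaaagttcagttggaAGAAgccag
Zfp612, chr8:110816773-110816802, plus strand: taagccagcaccaagatgttcacaatgaag
Zfp37, chr4:62110845-62110874, minus strand: acttactaaggaagtgacactcaggaAGAA
Zfp39, chr11:58782331-58782360, minus strand: taacggaactgaacgaaaccagccaggaca
Zfp445, chr9:122682091-122682120, minus strand: tgtataaacaagAGAAacgtcaAGAAgact
Zfp597, chr16:3683581-3683610, minus strand: atgAGAAgagccacAGAAgAGAAgagcctt
Zfp768, chr7:126943207-126943236, minus strand: aggctcgaccctgatccagcaccagcgcat
Zfp800, chr6:28244169-28244198, minus strand: aaaaagatggaAGAActaaaaaaatacatt
Zfp263, chr16:3567089-3567118, plus strand: ggaaaagcttctcttgcaactccaacctca
Zfp574, chr7:24780167-24780196, plus strand: gtgtccctgtgggaagacctttgttaacct
Zfp626, chr7:27518012-27518041, plus strand: accagatgattcatactggagAGAAgtcat

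The Zfp318 window held 2, 9 and 2 crosslinks in replicates 1, 2 and 3, the highest count of any window, and the Zfp612 window held 0, 6 and 2. The windows of Zfp37, Zfp39 and Zfp597 held 6, 6 and 5 crosslinks in total. Of the 11 windows 6 held AGAA, 4 overlapped a repeat unit and 2, those of Zfp597 and Zfp626, overlapped a linker. Of 27 such windows with at least 3 crosslinks, 17 lay outside the repeat units and 5 overlapped a linker. Of the 25 for which the sequence was read, 13 held AGAA. Of all block bases, 38.6% had AGAA starting within 15 nt on either side, and 248795 of 500291 nt lay outside the repeat units. These shares are per base, not per window. Whether the windows differed from the blocks in either measure was not tested.

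The libraries held 348033, 619571 and 488719 crosslinks in replicates 1, 2 and 3, and 96.5% to 98.2% of positions were seen in a single cDNA. A count of 0 in a library allows up to 3 crosslinks, which is 8.62, 4.84 and 6.14 CPM, in which counts are scaled to library size. Replicate 2 stood apart from the others in its share of crosslinks in exons of canonical protein-coding transcripts, which was 27.3%, 13.1% and 38.6% in replicates 1, 2 and 3. The results below are therefore given per library, and the values without replicate 2 stand in the account of the processing choices. All 8 germ cell markers were crosslinked in every library, from 9 crosslinks in Dazl in replicate 2 to 311 in Tnp1 in replicate 3. Markers of Leydig, Sertoli and myoid cells ranged from 0 to 52 crosslinks, the highest being Wt1. This range overlapped that of the lower germ cell markers Dazl, Sycp3 and Acrv1. In replicate 2 it also took in Tnp1 with 26 and Prm1 with 33. The Sertoli marker Amh and the blood marker Hba-a1 had 0 in each library, while the blood marker Ptprc had 0, 9 and 2 in replicates 1, 2 and 3.

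The blocks were 803 to 11295 nt long with a median of 1472 nt, and together they held 500291 nt. In the median gene the block was 87.7% of the coding sequence, and 36 members had a single coding exon. A C2H2 finger, counted as C, 2 residues, C, 12 residues, H, 3 residues and H in the translated block, was present in 296 members. At least 5 fingers were present in 277, the median was 11 and the highest was 33. The members that lacked the pattern numbered 17, among them Zfp36, Zfp36l1 and Zfp36l2, which carry fingers of another class and promote decay of mRNAs with AU-rich elements, and Zfp318, a nuclear protein needed in B cells for the choice between IgM and IgD. The name Zfp therefore did not guarantee an array of C2H2 fingers in the block, and earlier exons were not searched for fingers. A KRAB pattern was found in the translated protein of 139 members, and its position relative to the fingers was not checked. The pattern was a fixed short motif, so KRAB domains that depart from it were counted as absent. By chromosome, 83 members lay on 7, 42 on 17 and 31 on 13.

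The blocks were rich in purines. The median block was 54.6% purine and held 15.7 AGAA per kb, against 45.2% and 5.19 per kb in the median of 3334 other last coding exon blocks of at least 800 nt without a finger. Those 3334 blocks include 1532 of olfactory and vomeronasal receptor genes.

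Crosslinks on the coding strand were found in 208 of 313 members, and 105 had none in any library. The blocks held 281, 577 and 551 crosslinks in replicates 1, 2 and 3, which was 0.0807%, 0.0931% and 0.113% of the libraries. The median member had 1 crosslink over the 3 libraries, 34 members had at least 10, and 61 had crosslinks in every library. The 10 highest members held 44.8%, 34.3% and 41.9% of the crosslinks of all blocks, so a few genes carried much of the signal. Across the 313 members Spearman's rho between libraries was 0.511, 0.513 and 0.550, a description over genes that share libraries and differ in length. On the opposite strand of the same bases there were 19, 37 and 13 crosslinks, and the sense strand held 14.8, 15.6 and 42.4 times as many. An exon of another gene overlapped the block on the same strand in 11 members and on the opposite strand in 19.

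Members with no crosslink had a median of 11 fingers, the same as members with crosslinks. They differed in other measures. The introns of their genes held 0.210 crosslinks per kb over the 3 libraries against 0.424 for members with crosslinks, and their median block had 83.7% of bases that start a 31-nt sequence found once in the genome, against 98.5%. The amount of RNA from these genes was not measured, and how far either value accounts for the absence of crosslinks was not tested. At the limit of the rule, the shortest members were Zfp707, Zfp831 and Zfp771 with 803, 807 and 810 nt, which held 0, 0 and 1 crosslinks in total. Just below it, Zfp558 and Zfp664 with 783 nt held 0, 2 and 1 and 6, 7 and 7 crosslinks in replicates 1, 2 and 3.

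The highest density was that of Zfp318. Its block, chr17:46721560-46724709 on the plus strand, held 30, 66 and 66 crosslinks in replicates 1, 2 and 3, a mean of 34.7 ± 7.79 CPM per kb (SD, n = 3). It was high in every library, although it encodes no finger of the pattern counted. Zfp39, on chr11:58780607-58782372 of the minus strand and with 12 fingers, followed with 34.2, 5.48 and 59.1 CPM per kb. Its libraries spread over a range wider than its mean of 32.9 ± 26.8 (SD, n = 3), and replicate 2 was the low one. Zfp37, a gene expressed in testis and brain with 12 fingers in its block on chr4:62109404-62110926 of the minus strand, had 8, 8 and 25 crosslinks and 19.1 ± 13.0 CPM per kb. Zfp445, which maintains imprints together with Zfp57, had 11, 26 and 14 crosslinks in its block on chr9:122680982-122683053 of the minus strand, and 16.4 ± 3.38 CPM per kb. Unlike Zfp39 and Zfp37, it was of similar density in the 3 libraries.

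The other 8 of the 12 highest members ranged from 15.9 ± 3.55 CPM per kb in Zfp397 to 10.7 ± 4.65 in Zfp169, and neighbours in this order did not differ beyond their spread. Between them, in falling order, came Zfp597 (15.2 ± 7.53), Zfp768 (14.5 ± 7.20), Zfp574 (13.4 ± 7.87), Zfp830 (12.8 ± 4.65), Zfp263 (12.2 ± 4.72) and Zfp800 (11.9 ± 3.07). Of these, Zfp830 holds no finger of the C2H2 pattern and Zfp800 holds 2, while Zfp574 and Zfp169 hold 16 each.

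**Figure D1:**
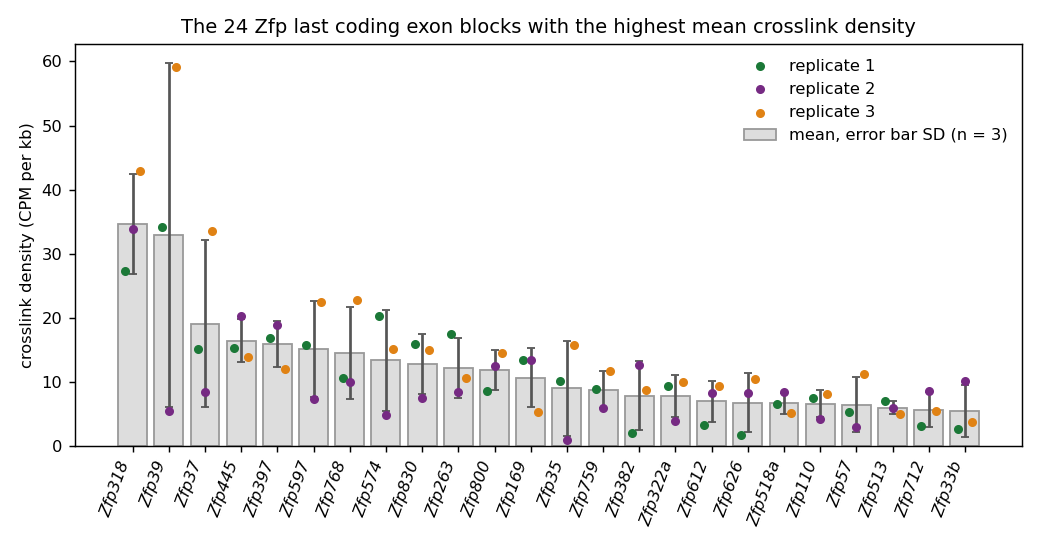
Crosslink density of the 24 Zfp last coding exon blocks with the highest mean, in CPM per kb. Points are the 3 libraries, grey bars the mean and error bars the SD. Zfp318 is high in all 3 libraries, while Zfp39 ranges from 5.48 to 59.1 CPM per kb.

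Of the 8 members chosen for a known role, Zfp318 and Zfp37 were among the 3 highest in density. Zfp57, which protects methylation at imprinted loci, had 2, 2 and 6 crosslinks. Zfp42, also known as Rex1 and a marker of pluripotent cells, had 0, 2 and 4, and Zfp148, which binds GC-rich promoters, had 1, 4 and 1. No crosslink was found in Zfp568, which represses a placental transcript of Igf2, or in Zfp407. The longest arrays held few crosslinks, like the median member. Zfp619 with 33 fingers held 1, 1 and 0 crosslinks, Zfp729b with 30 held 0, 2 and 1, and Zfp729a with 27 held 1, 0 and 1. In Zfp729b and Zfp729a, close copies of each other, 66.8% and 44.2% of bases were unique, so reads from either could be lost or misplaced there.

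The blocks were then compared with other parts of the same genes, to ask whether contacts favoured the finger exon. Summed over members, block density was 1.61, 1.86 and 2.25 CPM per kb in replicates 1, 2 and 3, with a mean of 1.91 ± 0.323 (SD, n = 3). The exons before the block had 1.91 ± 0.532, the 3′ UTR 0.954 ± 0.187 and the introns 0.226 ± 0.00547. As log2 folds of summed densities, the block was 3.06 ± 0.26 above the introns and 1.01 ± 0.35 above the 3′ UTR, with the block higher in 3 of 3 libraries in both. Over the earlier exons the log2 fold was 0.02 ± 0.22, with values of -0.05, 0.26 and -0.17. The blocks as a group were thus far denser than introns, and differed from the earlier exons of their genes by less than the spread between libraries. With 3 libraries of 1 group an exact sign-flip test cannot give a two-sided p below 0.25, and none was run.

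The value against the earlier exons depended on 1 gene and on the reference. Zfp318 held 33, 28 and 105 crosslinks in its earlier exons, and without it the log2 fold was 0.34 ± 0.10. Against earlier coding sequence alone, without the 5′ UTR, the blocks were lower in every library, with a log2 fold of -0.64 ± 0.22. In that reference density was 3.01 ± 0.853 CPM per kb. No direction is therefore given for the block against the other exons.

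**Figure D2:**
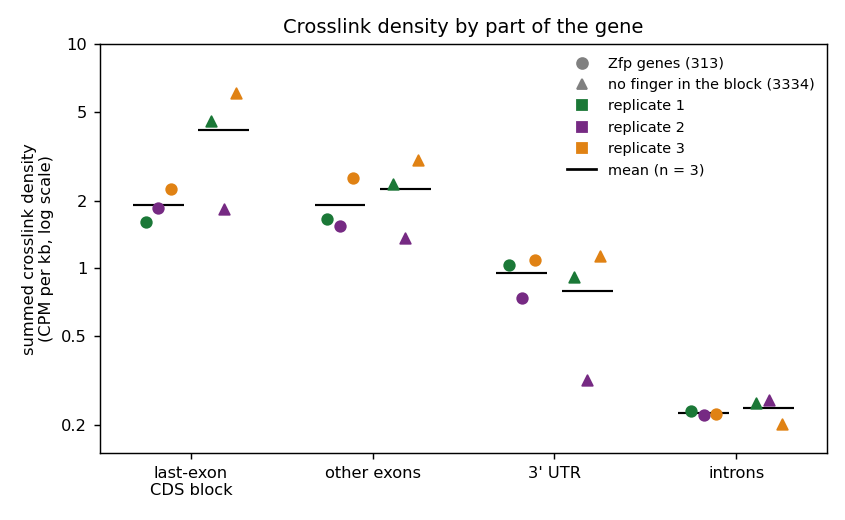
Summed crosslink density in CPM per kb, on a log axis, in 4 parts of the gene for the 313 Zfp genes (circles) and for 3334 genes whose long last coding exon encodes no finger (triangles). Colours are the 3 libraries and black lines the means. In Zfp genes the block and the other exons both average 1.91 CPM per kb and the introns 0.226, while blocks without fingers average 4.13.

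Single genes were tested with a two-sided exact binomial test in each library, by length, with Benjamini-Hochberg adjustment over all genes tested and all 3 libraries. A call required an adjusted p below 0.05 and the same sign of the difference in every library. Against the earlier exons, 46 members had enough crosslinks to be tested and 0 were called. The background was 433 genes tested and 0.231% called higher. At an unadjusted p under 0.05, 0 members passed in all 3 libraries and 6 in at least 1. The rule had little power, since on simulated counts of the 433 genes it recovered 11.5% of 8-fold changes. When the libraries were summed before the test, 4 members were called higher, against 8.55% of all genes tested, and 0 lower, against 2.08%. These were Zfp800, Zfp169, Zfp382 and Zfp397. In the first 3 the earlier exons held 1, 0 and 0 crosslinks over the 3 libraries, against 30, 30 and 18 in the block. The median log2 fold was 0.34 over the 46 members and 0.15 over all genes tested.

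Against the introns, 79 members were tested and 12 were called higher and 0 lower. The share called over all 568 genes tested was 18.3%, so the members were not called more often than long last coding exons in general. The log2 fold was above 0 in all 3 libraries in 67 of the 79 members, and in 87.5% of all genes tested. The median log2 fold was 2.45 over the members and 2.83 over all. Of the members that passed, Zfp318 had 30, 66 and 66 crosslinks in the block and 8, 6 and 21 in introns that are 22672 nt long, a log2 fold of 5.12 ± 0.94 (largest adjusted p 2.01e-19, exact binomial test). Zfp39 had 21, 6 and 51 in the block and 3, 1 and 4 in the introns (log2 fold 5.50 ± 0.71, largest adjusted p 0.000174, exact binomial test). In both the block exceeded the introns in each library despite the spread between libraries in Zfp39.

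Zfp445 had 7, 4 and 5 crosslinks in its introns and a log2 fold of 3.76 ± 0.98 (0.000259, exact binomial test). Zfp292, which has the longest block among the 12, 7080 nt with 2 fingers, had 7, 22 and 9 in the block and 6, 21 and 9 in the introns (3.39 ± 0.11, 0.000326, exact binomial test). Its folds were the most even of the 12 across libraries. Zfp37, Zfp169, Zfp759, Zfp597, Zfp397, Zfp800 and Zfp518a were also called, with mean log2 folds of 3.14 to 5.86. Zfp386 was called on 3, 5 and 4 crosslinks in the block and 0, 1 and 1 in the introns, a small count for which no fold is given. Without replicate 1, the shallowest library, 22 members were called, against 25.2% of all genes tested, and 37 were called with the libraries summed, against 46.3% of all genes tested.

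Against the 3′ UTR, which for the most part lies in the same exon, 56 members were tested and 2 were called higher, with a background of 2.67% of 450 genes. These were Zfp318, with 14, 10 and 28 crosslinks in a 3′ UTR of 6238 nt (log2 fold 2.64 ± 0.88, largest adjusted p 8.69e-05, exact binomial test), and Zfp574, with 19, 8 and 20 in the block and 1, 0 and 3 in a 3′ UTR of 4462 nt (largest adjusted p 0.00568, exact binomial test). With the libraries summed, 15 were called, against 27.6% of all genes tested. The median log2 fold was 0.88 over the members and 0.72 over all.

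The Zfp blocks were set beside other long last coding exons. Blocks without a finger had 4.54, 1.84 and 6.02 CPM per kb in replicates 1, 2 and 3, a mean of 4.13 ± 2.12 (SD, n = 3). They were denser than the Zfp blocks in replicates 1 and 3 and close to them in replicate 2. Their log2 fold over the earlier exons was 0.78 ± 0.31, and that over the 3′ UTR was 2.41 ± 0.10. The difference of the Zfp blocks from them in log2 fold over the 3′ UTR was -1.67, -1.19 and -1.35, lower in 3 of 3 libraries and larger than the spread (mean -1.40 ± 0.25). The difference in log2 fold over the earlier exons was also below 0 in 3 of 3 libraries, at -0.77 ± 0.52, but without Zfp318 in the one set and Akap12 in the other it was -0.29, -0.04 and -0.11 (mean -0.15 ± 0.13). The difference over the 3′ UTR was -1.38 ± 0.19 without these genes. Over introns the difference was -1.38, 0.26 and -1.57 with all genes, and -1.13, 0.19 and -1.28 without Zfp318 and Akap12. The libraries did not share a direction in either. An exact sign-flip test of these differences cannot give a two-sided p below 0.25, and none was run.

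In the set without fingers 1 gene, Akap12, held 20.9% of the crosslinks. Without it the density of that set was 3.24 ± 1.41 CPM per kb, and without the receptor genes it was 6.33 ± 3.26. The 98 other long blocks with at least 5 fingers, from genes not named Zfp, had 0.825 ± 0.304 CPM per kb and log2 folds of 2.18 ± 0.65 over introns and 0.24 ± 0.60 over the 3′ UTR. The fold of the Zfp blocks over the 3′ UTR was higher than that in 3 of 3 libraries, by a log2 difference of 0.76 ± 0.26. The 58 blocks with 1 to 4 fingers had a log2 fold over the 3′ UTR of 0.75 ± 0.65. The Zfp blocks as a whole were thus lower in this measure than blocks without a finger and higher than the 98 other blocks. The sets are unlike, since 36 Zfp members have fewer than 5 fingers, with a log2 fold of 1.78 ± 0.83. Zfp blocks with 5 to 9 fingers had 0.23 ± 0.28, close to the 98 blocks, and those with at least 10 had 1.06 ± 0.28. In the 98 blocks 44.7% of bases were not unique, against 19.2% in the Zfp blocks and 20.1% in blocks without a finger. The share of crosslinks at such bases in Zfp blocks was 0.712%, 2.25% and 1.27% in replicates 1, 2 and 3, far below the share of bases. On unique bases alone the Zfp density was 2.33 CPM per kb. Low counts in members with near-identical copies are therefore uncertain.

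Density was also summed by the number of fingers and by the KRAB pattern. In the 36 members with fewer than 5 fingers it was 3.35 ± 0.625 CPM per kb, in the 66 with 5 to 9 fingers 1.81 ± 0.201 and in the 211 with at least 10 fingers 1.63 ± 0.299 (SD, n = 3). Zfp318 lies in the first group and held 30, 66 and 66 of its 68, 161 and 139 crosslinks in replicates 1, 2 and 3. The density of that group without Zfp318 was not computed, so no trend with the number of fingers is drawn. Over the 3′ UTR the log2 folds of these groups were 1.78 ± 0.83, 0.23 ± 0.28 and 1.06 ± 0.28, so they did not follow the number of fingers. In the 139 members with the KRAB pattern the block was denser than the earlier exons in 3 of 3 libraries. The log2 fold was 0.53 ± 0.22 there and -0.18 ± 0.26 in the 174 others, which may include KRAB proteins that the pattern misses. The others gave -0.16, 0.08 and -0.44 in replicates 1, 2 and 3. Zfp318 lies among them, with 33, 28 and 105 of the 84, 137 and 195 crosslinks in their earlier exons. Against earlier coding sequence alone the members with the KRAB pattern had a log2 fold of 0.06 ± 0.27. No contrast in direction between the groups is therefore drawn, and their difference was not tested.

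Next, crosslinks were placed within the finger repeat. Units of 84 nt, from the first base of a first cysteine codon to the next one, numbered 2994 in 286 blocks and covered 251496 nt. They held 111, 214 and 224 crosslinks in replicates 1, 2 and 3. Per kb this was 0.792, 0.742 and 0.823 times the density of the other bases of the same blocks. Counted crosslinks were thus less dense inside the repeats in 3 of 3 libraries. This ratio was taken over all bases and was not computed on unique bases alone. Bases that are not unique, 19.2% of the blocks, held few crosslinks, and their split between units and other bases was not measured. Whether the lower count reflects fewer contacts was not tested.

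AGAA was concentrated at a few places of the repeat. It started at nt 71, in the linker, in 62.2% of units, and at nt 55, just before the linker, in 37.8%. Some AGAA lay in the linker of 72.3% of units, and 2191 of the 7603 AGAA of all blocks (28.8%) started there. The linker, nt 64 to 84, makes up 25% of the bases of the units. It held 24, 35 and 49 crosslinks, which was 21.6% (95% Clopper-Pearson interval 14.4 to 30.4), 16.4% (11.7 to 22.005) and 21.9% (16.6 to 27.9) of the crosslinks of the units. The mean was 19.95% ± 3.12 (SD, n = 3), or 0.798 ± 0.125 times the share of bases. Thus the linker window as a whole was not raised in any library, and in replicate 2 the interval lay below 25%. Within it nt 79, a T in 95.6% of units whose sequence was read, held 4, 3 and 12 crosslinks. That was a fold of 2.90 ± 1.66 over its share of bases, for a nucleotide picked by its count and not tested.

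The window with the highest mean share was nt 22 to 42, which lies within the finger between the second cysteine and the first histidine. It held 26.1%, 39.3% and 33.5% of crosslinks, a fold of 1.32 ± 0.263 over its share of bases. It was above 1 in 3 of 3 libraries but near it in replicate 1, where nt 43 to 63 held more, 33 crosslinks against 29. The windows of nt 1 to 21 and nt 43 to 63 had folds of 0.823 ± 0.0998 and 1.06 ± 0.130. The windows differ in base content, and nt 22 and 23 were T in 98.7% and 97.6% of units whose sequence was read. How far the U content of a window accounts for its share was not tested. Restricted to unique bases, the linker fold was 0.854 ± 0.117. In the units of the 98 other C2H2 blocks, with 10, 50 and 32 crosslinks, the linker fold was 0.585 ± 0.254.

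Units whose linker holds AGAA were compared with those whose linker does not. They had 3.19, 7.26 and 6.84 crosslinks per 100 units, against 5.06, 6.87 and 9.16 in 830 units without it. The ratio was 0.811 ± 0.220, below 1 in replicates 1 and 3 and above 1 in replicate 2, so the libraries gave no common direction. These ratios rest on 111 to 224 crosslinks over 2994 units in a library.

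**Figure D3:**
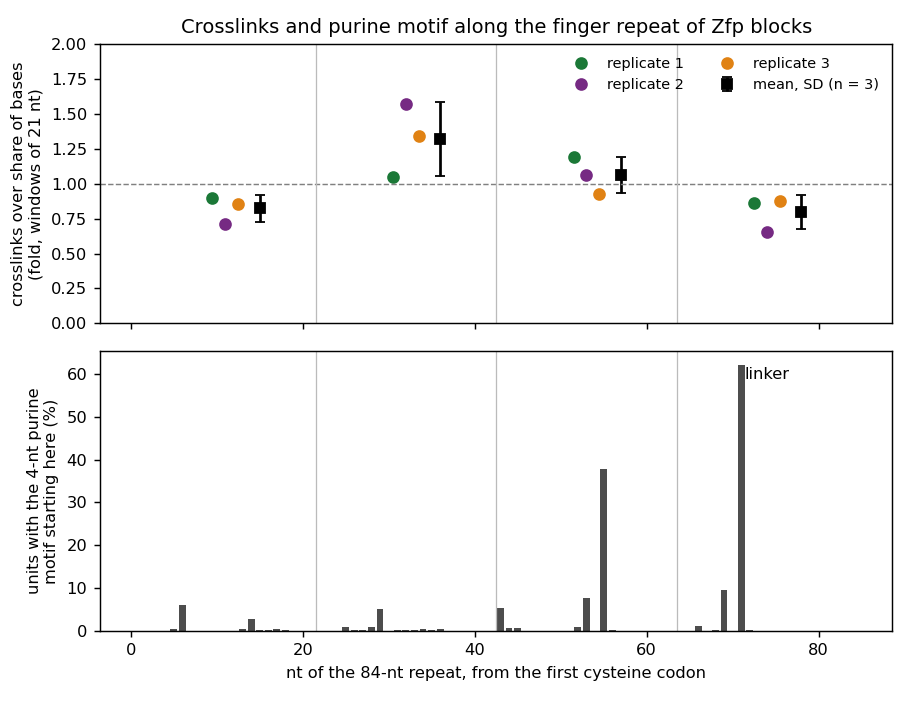
Crosslinks and the purine motif along the 84-nt finger repeat, counted from the first cysteine codon. The upper panel gives crosslinks over the share of bases in 4 windows of 21 nt for each library, with the mean and SD. The lower panel gives the percentage of 2994 units in which the motif starts at each nt. The motif peaks at nt 71 in the linker. The crosslink fold of the whole linker window, nt 64 to 84, is 0.798 ± 0.125, and the mean fold is highest at nt 22 to 42, at 1.32 ± 0.263.

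The motif was then followed from the crosslinks. In the Zfp blocks 22.4%, 30.5% and 22.5% of crosslinks in replicates 1, 2 and 3 had AGAA starting 1 to 15 nt downstream, and 21.8% of all block bases did. The fold was 1.16 ± 0.213 (SD, n = 3). It rested on replicate 2, and was 1.03 in each of the other two. In blocks without a finger the shares of crosslinks were almost the same, 22.1%, 28.3% and 21.8%, but only 9.07% of bases had the motif there, a fold of 2.65 ± 0.409. Without Akap12 that fold was 2.45 ± 0.511, and without the olfactory and vomeronasal receptor genes it was 2.27 ± 0.353. At 1 to 15 nt upstream the folds were 1.02 ± 0.125 in the Zfp blocks and 2.36 ± 0.223 in blocks without a finger. The share of crosslinks near AGAA was thus alike in both kinds of exon, and the share of bases near it was not.

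A longer purine motif, GAAGA, which can overlap AGAA, set the Zfp crosslinks apart from their own bases in every library. It started 1 to 15 nt downstream of 7.47%, 12.7% and 6.35% of crosslinks and of 3.61% of bases, a fold of 2.44 ± 0.930. Upstream, at the same distances, the fold was 1.90 ± 0.246 and above 1 in every library, so the motif was not confined to the downstream side. In blocks without a finger the folds were 4.35 ± 1.301 downstream and 3.31 ± 0.506 upstream. The downstream fold was 3.48 ± 1.05 when the receptor genes were left out. Of 1252 GAAGA in the Zfp blocks, 439 (35.1%) lay in repeat units. Inside the units the downstream folds were 0.932 ± 0.195 for AGAA and 1.40 ± 0.616 for GAAGA, and in all other bases of the blocks they were 1.44 ± 0.243 and 2.60 ± 1.06. AGAA outside the units was above 1 in 3 of 3 libraries, while AGAA inside the units was above 1 in replicate 2 alone.

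**Figure D4:**
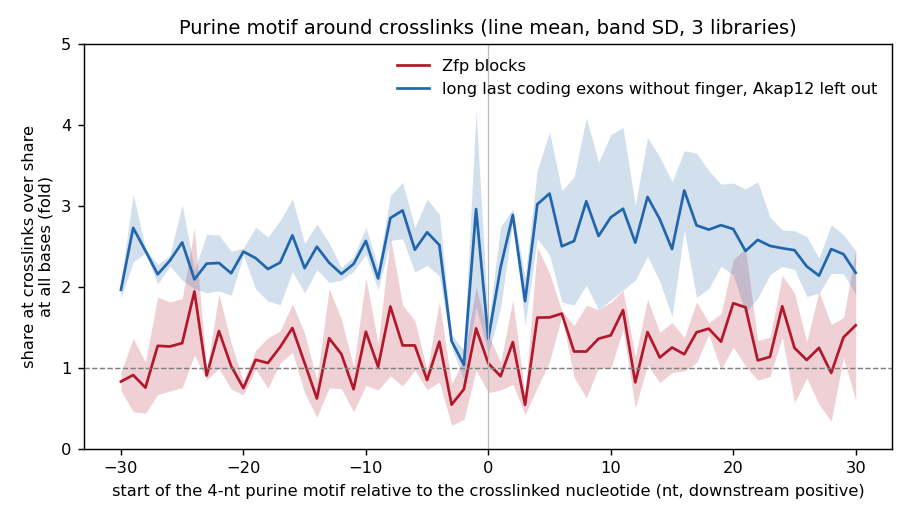
Share of crosslinks with the 4-nt purine motif starting at each distance, over the same share of all bases, in Zfp blocks (red) and in long last coding exons without a finger and without Akap12 (blue). Lines are the mean and bands the SD of 3 libraries. From 4 to 15 nt downstream the blue line lies between 2.47 and 3.15, and the red line between 0.820 and 1.71.

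The crosslinked base itself was a U in 40.6%, 38.0% and 39.2% of crosslinks in the Zfp blocks, where 22.7% of bases are U. Blocks without a finger had U at 35.0%, 31.9% and 35.1% of crosslinks and 25.4% of bases. Ultraviolet light fixes proteins to uridines more readily than to other bases, which bears on any count of contacts at single nucleotides or in short windows. Along the block from its start, the first of 10 equal parts held 1.25 ± 0.194 times its share of crosslinks and the last 0.840 ± 0.182, with the others between 0.887 and 1.07. No single nucleotide was crosslinked in all 3 libraries, and 18 were crosslinked in 2.

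The genes that encode partners of KRAB zinc-finger proteins were followed as a list of 13. All exons of the canonical transcript were compared with its introns by the same exact test. Of the 13 genes, 8 were called higher and 0 lower, where 29% of 8557 genes tested were called higher and 0.0117% lower. They were Chd4, Chd3 and Hdac2 of the NuRD chromatin remodelling complex, Setdb1, a histone methyltransferase, and its partner Atf7ip, Cbx5 of the HP1 family, Mphosph8 of the HUSH silencing complex and Dnmt1, the maintenance DNA methyltransferase. Chd4 had 105, 88 and 268 exonic and 14, 16 and 17 intronic crosslinks, a log2 fold of 4.99 ± 0.78. Trim28, which binds the KRAB domain directly, had 8, 10 and 9 exonic and 0, 0 and 1 intronic crosslinks and was not called (adjusted p of up to 0.0527, exact binomial test). Among the Zfp genes 113 could be tested in this way and 10 were called higher. The list was chosen with results of these data known, and 8 of 13 is a description.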

How the data were processed

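Tra2β iCLIP was measured in 3 testis libraries of adult wild type mice, 1 group. The authors processed reads with the iMAPS pipeline and deposited whole-number counts of unique cDNAs per crosslinked nucleotide and strand, not normalised and not pooled. The submitters' notes name Trim Galore 0.6.7, Bowtie 1.3.1, STAR 2.7.9a, UMI-tools 1.1.2 and the build mm39. How reads mapping to more than 1 place were treated was not given in the sources used here. All positions fitted GRCm39.

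Counts were summed by strand over regions of the GENCODE vM39 canonical transcript on 19 autosomes. The reference of other exons was the 5′ UTR and coding sequence before the block, and introns left out bases exonic in any transcript of that strand. Densities are CPM per kb, and log2 folds have 0.5 crosslinks added to each count. Genes with at least 10 crosslinks in block and reference were tested with exact binomial tests (scipy 1.17.1, Python 3.11.15, numpy 2.4.6, pandas 2.3.3). On simulated counts of the same genes, the rule of all 3 libraries recovered 11.5% of 8-fold changes against other exons and 15% against introns. Uniqueness was read from the 31 nt downstream of each base, on both strands of the genome. Intervals are 95% Clopper-Pearson and, like the limits for a count of 0, cover counting error only.

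Members and lists were chosen with earlier results of these data known. Genes named were the 12 members of highest mean density, those called, 12 with known roles (Zfp541, Zfp809, Zfp462 and Zfp644 fell outside the rule), the 3 with most fingers and 13 KRAB cofactors. Members at the length limit, those with the windows printed and those called with summed libraries were named after their values were seen. Alternatives were each replicate left out, positions counted once, unique bases only, no minimum or 30 crosslinks, blocks of at least 1200 nt, other references, a linker window moved 9 nt upstream and the motif on either side. Summed libraries, leaving out Zfp318, Akap12, both or receptor genes and the split by repeat units were added after seeing the data. Sequence from chromosome 18 is not reported here, which left 2972 of 2994 repeat units for the printed sequences.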

Additional observations from a re-analysis of the deposited data

How the results depend on the processing

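Of 67 alternatives for values over all members, 60 stayed within the spread between libraries or within 1.5 times the count. Of these 60, 2 changed sign, both of the log2 fold over the other exons of 0.02, to -0.11 without replicate 2 and -0.16 for blocks of at least 1200 nt. The number of members called against the introns, 12, was 12 to 22 when each replicate was left out and 37 with libraries summed. The number called against the other exons, 0, was 0 for each replicate left out and 4 with libraries summed. The summed test has more power, with 57% of 8-fold changes against the other exons recovered on simulated counts. The log2 fold over the other exons, 0.02, was 0.34 without Zfp318, -0.64 against earlier coding sequence alone, 0.34 as the median over members with at least 10 crosslinks, and -0.11 to 0.11 with each replicate left out. The summed density of 1.91 CPM per kb was 2.33 on unique bases. Without replicate 2 the log2 folds were 3.06 over introns and 0.85 over the 3′ UTR, the linker share 21.7% and the AGAA fold 1.03. Of 102 alternatives for single members against the introns, 98 kept the call. Zfp397 lost it against whole introns, and Zfp397, Zfp800 and Zfp386 lost it with no minimum of crosslinks, where more genes are tested. None reversed. No paired analysis was possible because the labels give 1 group, so no replicate number is shared between groups. All comparisons of parts of a gene were made within each library. Depth limits all values for single members, since the median member had 1 crosslink.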
